A study of Caenorhabditis elegans with 18 samples.

Results

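The loss of the Argonaute gene alg-1 was examined in Caenorhabditis elegans that already carried a mutation in dpf-3, by setting the 3 small RNA libraries of dpf-3(xe68);alg-1(gk214) double mutants against the 3 libraries of dpf-3(xe68) single mutants. These are 6 of the 18 libraries of the series, which holds 3 libraries of each of 6 genotypes. Every library came from whole young adults, raised at 25 °C on OP50 bacteria and NGM plates and collected as pellets. Both groups carry the xe68 allele of dpf-3 on chromosome I, and the double mutant also carries the gk214 allele of alg-1 on chromosome X. Members of the comparison are all miRNAs that passed a filter on low counts, which kept 139 of 175. The same loss with dpf-3 intact, 3 alg-1(gk214) libraries against 3 wild type (N2 Bristol) libraries, shares no library with it and serves as the reference. The labels do not name the number of animals or a method of making the strains, and a single allele of each gene was used.

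MiRNAs are short RNAs that are cut from hairpin precursors, loaded into an Argonaute protein and guided by it to matching messenger RNAs, whose translation and stability they lower. ALG-1 and ALG-2 are the main miRNA Argonautes of C. elegans, and a miRNA without an Argonaute is generally short-lived, so the abundance of a miRNA reflects both its production and its protection. DPF-3 is a peptidase of the dipeptidyl peptidase IV family, whose members remove short stretches from the N-terminus of proteins. The comparison asks which miRNAs still depend on alg-1 once dpf-3 is gone.

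The libraries held 17.1, 18.5 and 22.5 M (mega) counts in dpf-3 and 12.9, 10.5 and 8.64 M in the double mutant, and 145 to 154 miRNAs had a count. Levels are given in CPM, the usual unit for counts scaled to a common library size, here by library total and TMM factor. Scaled by library total alone, a level of 3 counts corresponded to 0.133 to 0.347 CPM. Correlations of log2 CPM across miRNAs were 0.996 to 0.998 within a group and 0.971 to 0.981 between the groups. A library in each group stood apart: the median distance of a miRNA from its group median was 0.117 log2 units in dpf-3 replicate 2 and 0.106 in dpf-3;alg-1 replicate 1, against 0.0168 to 0.0372 in the other 4. Where leaving out both libraries changed the call of a named miRNA or moved a called fold change by over 1.5 times, the value without them is given too. The transcripts of the mutated genes are not part of miRNA counts, and the labels of genotype therefore have no check of their own. Since RNA came from whole animals, fewer cells of a type and less miRNA per cell cannot be told apart.

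Loss of alg-1 in dpf-3 animals changed more than 50% of the measured miRNAs, in both directions and mostly by modest amounts. By edgeR's quasi-likelihood test, 81 of the 139 miRNAs (58.3%) passed a Benjamini-Hochberg adjusted p of 0.05, 40 of them higher in the double mutant (28.8%) and 41 lower (29.5%). The median size of the change over all 139 was 0.47 log2 units, and changes of at least 2-fold were found in 11 of the rises (7.91%) and 16 of the falls (11.5%). For 87 miRNAs (62.6%) no library of one group lay within the range of the other. The split of calls was 19 higher and 56 lower with upper quartile factors in place of TMM, a scaling that shifted the median change from -0.0032 to -0.27. It was 34 higher and 40 lower without the libraries that stood apart, with 6 higher and 20 lower by at least 2-fold.

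**Figure D1:**
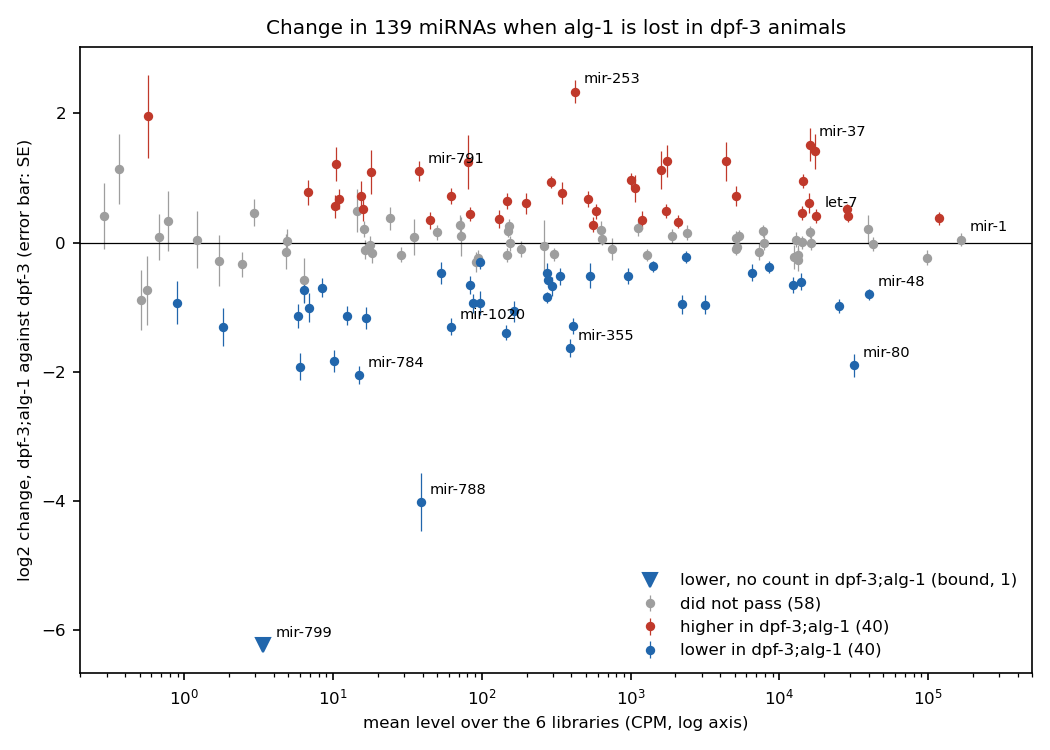
Each of 139 miRNAs is placed by its mean level over the 6 libraries (CPM, log axis) and its log2 change from dpf-3 to dpf-3;alg-1, with the SE as error bar and colour for the 40 that were higher, the 41 that were lower and the 58 that did not pass. mir-799 had no count in the double mutant and is drawn as a triangle at its bound of -6.22. Changes beyond 1 log2 unit occur at low and at high levels, and mir-80 and the mir-35 family are the abundant miRNAs among them.

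The calls were spread over the range of abundance. Among the 50 miRNAs above 1000 CPM in dpf-3, 16 rose and 12 fell. Of the 37 between 100 and 1000 CPM, 11 rose and 14 fell, and of the 27 between 10 and 100 CPM, 8 rose and 8 fell. The 25 miRNAs below 10 CPM had 5 rises and 7 falls, with a median SE of 0.30, against 0.11 for the most abundant class, so a change had to be larger to be detectable there.

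Among miRNAs named by the rule, the falls were led by mir-788, mir-784 and mir-80. mir-788 stood at 52.3, 115 and 52.7 CPM in the 3 dpf-3 libraries and at 1.92, 6.03 and 5.90 CPM in the 3 double mutant libraries. Every double mutant library lay below every dpf-3 library, although the level varied more than 2-fold within each group. The log2 change was -4.01 (SE 0.45, adjusted p = 1.6e-06), and it was -3.15 without the libraries that stood apart. mir-784 went from 25.7, 21.1 and 25.1 CPM to 5.99, 5.85 and 5.47 CPM, a tighter set of values in both groups. Its change was -2.05 (SE 0.14, adjusted p = 4.7e-09).

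mir-80 was the only miRNA above 1000 CPM in dpf-3 that fell by at least 2-fold. It belongs to the mir-58 family, the bantam-related family of the worm, and has been linked to the response to food restriction. Its levels were 54571, 42750.3 and 53123 CPM in dpf-3 and 14705, 12191 and 13495 CPM in the double mutant, and the groups lay far apart. The change was -1.90 (SE 0.18, adjusted p = 1.2e-07), a 3.72-fold fall, which took mir-80 from 5.32% ± 0.663 to 1.41% ± 0.0562 of all counts (SD, n = 3). The other members of the family did not all follow it. mir-58, the most abundant of them, was higher at 0.37 (SE 0.095, adjusted p = 0.0026), a call that was lost with upper quartile factors. mir-81 and mir-82 were at 0.043 and -0.025 and did not pass, and the low-level mir-2209a fell by 1.01 on the log2 scale. In all, 1 of 5 tested members rose and 2 fell, where 28.8% of all tested miRNAs rose and 29.5% fell. mir-1834 did not pass the filter. The summed share of the family, 22.2% in dpf-3 and 21.2% in the double mutant, overlapped between the groups.

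mir-799 lost all of its counts. It had 129, 144 and 139 counts in the dpf-3 libraries and 0 in each double mutant library. With 3 counts over the group taken as the floor, this was at least 74.7-fold lower, a bound that covers counting error only. With dpf-3 intact mir-799 fell as well, from 78, 66 and 79 counts in wild type to 0, 0 and 1 in alg-1. The difference between the falls in the dpf-3 and wild type backgrounds did not pass (edgeR, adjusted p = 0.25). The miRNA was named after its values were seen, because it lay below the level set for naming.

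Mirtrons are miRNAs whose hairpin is a whole spliced intron, so they enter the pathway without the nuclear cutting step. All 3 tested members of the mirtron list fell, where 29.5% of all tested miRNAs did. mir-62 went from 241, 190.3 and 203 CPM to 80.9, 84.5 and 75.4 CPM, with no overlap and a change of -1.40 (SE 0.12, adjusted p = 2.9e-08). mir-1020 fell from 86.2, 88.3 and 90.6 CPM to 37.4, 33.1 and 36.9 CPM, again without overlap, at -1.30 (SE 0.13, adjusted p = 2.7e-07). mir-1018, at -0.73 (SE 0.20), was the lowest in level, and its call was lost without the libraries that stood apart (-0.53, adjusted p = 0.072). The list took 0.0327% of the counts in dpf-3 and 0.0127% in the double mutant. Its median change was -1.30, against -0.0032 for all tested miRNAs, and the remaining member, mir-1019, did not pass the filter.

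Several further falls were near or above 2-fold and were tight within the groups. mir-355 stood at 647, 504 and 611 CPM against 215, 187 and 168 CPM, at -1.63 (SE 0.14, adjusted p = 3.4e-08). mir-227 stood at 583, 550.2 and 602 CPM against 229.7, 239 and 244 CPM, at -1.28 (SE 0.12, adjusted p = 1.2e-07). In both cases the lowest dpf-3 library was above the highest double mutant library by more than 2-fold. mir-2208b-5p (-1.84) fell by about as much as the other arm of its hairpin, mir-2208b-3p (-1.92). With dpf-3 intact and TMM factors, loss of alg-1 moved these arms in opposite directions, at -0.94 and 0.53. The wild type and alg-1 libraries overlapped for mir-2208b-3p, and with upper quartile factors mir-2208b-5p was at 0.22 there and did not pass. mir-1819, mir-800 and mir-46 fell by 1.17, 1.13 and 1.06 on the log2 scale, and their libraries did not overlap. The abundant mir-70 went from 32357, 32139.6 and 35457 CPM to 18531, 15479 and 16529 CPM, a change of -0.98 (SE 0.11, adjusted p = 5.2e-07) that took it from 3.53% to 1.76% of the counts.

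**Figure D2:**
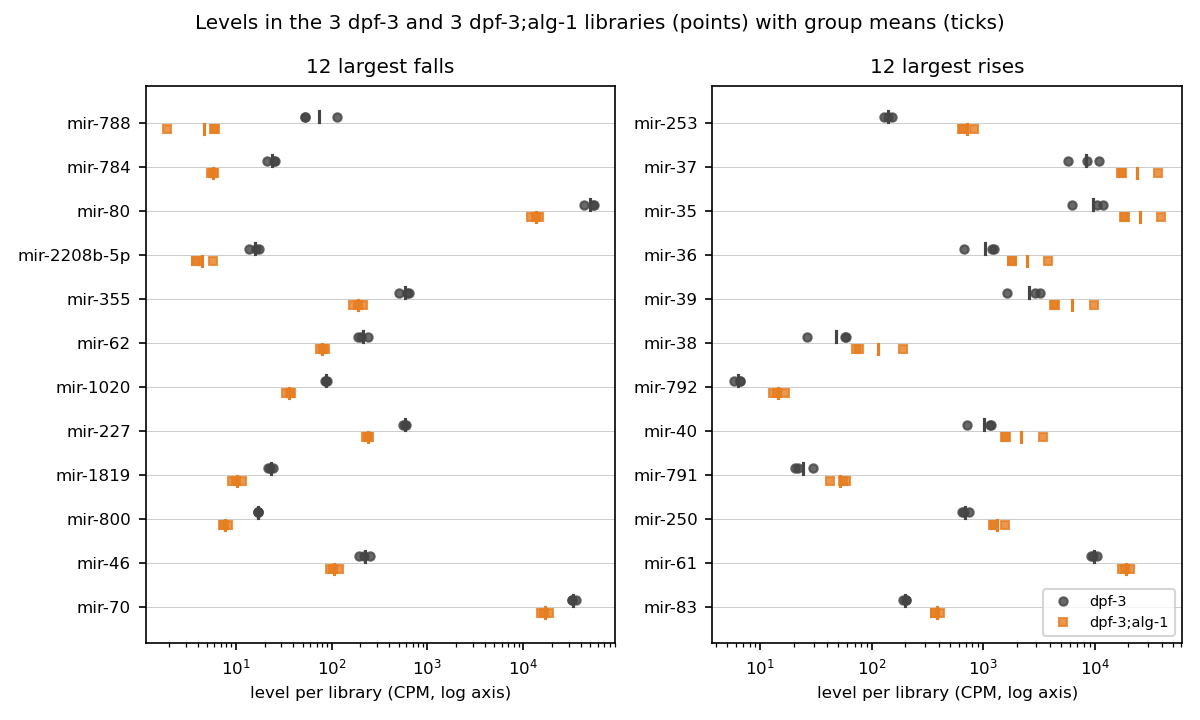
Levels in single libraries (CPM, log axis) are shown for the 12 largest rises and the 12 largest falls, with 3 points for dpf-3, 3 points for dpf-3;alg-1 and a tick at each group mean. The groups do not overlap for any of the 24, as the rule for naming them required. mir-788 and the mir-35 family vary the most between libraries of a group.

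Of the rises, mir-253 was the largest among miRNAs named by the rule. Its level was 152, 128 and 140.2 CPM in dpf-3 and 818, 645 and 662 CPM in the double mutant. The spread within each group was small beside the gap between them. The change was 2.34 (SE 0.18, adjusted p = 1.5e-08), a 5.05-fold rise, and it was 2.15 without the libraries that stood apart. mir-61, a miRNA known from vulval cell fate decisions, and its neighbour mir-250 rose by nearly the same amount. mir-61 went from 9281, 10415 and 9562 CPM to 20790.2, 17416 and 18627 CPM, at 0.96 (SE 0.11, adjusted p = 5.2e-07). mir-250 went from 668, 742 and 650.1 CPM to 1552, 1251 and 1216 CPM, at 0.96 (SE 0.11, adjusted p = 7.9e-07). For both, every double mutant library was above every dpf-3 library. mir-83, a relative of the mammalian miR-29 family that takes part in gonad cell migration, rose from 204, 192 and 204 CPM to 412, 369.6 and 370.4 CPM, at 0.94 (SE 0.10, adjusted p = 2.7e-07). mir-792 rose at a low level, from 5.78, 6.51 and 6.51 CPM to 14.1, 16.7 and 12.9 CPM, at 1.21 (SE 0.26, adjusted p = 0.00073).

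The mir-35 family is a set of oocyte and embryo miRNAs without which embryos die. Of its 8 members 7 rose and none fell, where 28.8% of all tested miRNAs rose and 29.5% fell, and the median change was 1.25. mir-37 stood at 8459.8, 5791 and 10837 CPM in dpf-3 and 37018, 17279 and 17529.8 CPM in the double mutant, at 1.52 (SE 0.26, adjusted p = 0.00014). mir-35 stood at 10449, 6247 and 11954 CPM and 39026, 18729.9 and 18465 CPM, at 1.41 (SE 0.27, adjusted p = 0.00035). In both cases dpf-3 replicate 2 was the lowest of all 6 libraries and dpf-3;alg-1 replicate 1 the highest, at more than 2 times the level of the other double mutant libraries for mir-37. mir-36, mir-39, mir-38, mir-40 and mir-41 rose by 1.26, 1.26, 1.25, 1.12 and 1.09, and the libraries overlapped for mir-41. mir-42, which was 203, 429 and 168 CPM in dpf-3 and 164, 296 and 315 CPM in the double mutant, did not pass, at -0.046 (SE 0.39, adjusted p = 0.94).

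The size of these rises rested in part on the libraries that stood apart. Without both, mir-35, mir-37, mir-36 and mir-39 were still called, with changes of 0.72, 0.84, 0.57 and 0.48. The calls of mir-40 (0.44, adjusted p = 0.068), mir-41 (0.41, adjusted p = 0.23) and mir-38 (0.34, adjusted p = 0.41) were lost. mir-42 was at 0.71 (SE 0.34, adjusted p = 0.089) in that setting, close to mir-35, and still did not pass. mir-38 was also lost without dpf-3 replicate 2 alone or dpf-3;alg-1 replicate 1 alone, and mir-41 without dpf-3;alg-1 replicate 1. In a fit of the 6 libraries alone, with none left out, mir-38, mir-39, mir-40 and mir-41 were at 1.29, 1.29, 1.16 and 1.12. Their calls were lost there (adjusted p = 0.088, 0.057, 0.054 and 0.085). The family took 2.62%, 1.66% and 2.98% of the counts in dpf-3 and 9.05%, 4.88% and 4.75% in the double mutant, so the groups did not overlap. The difference of the means was 3.81 percentage points, and 2.02 points without both of these libraries. An exact permutation test of 3 libraries against 3 cannot go below p = 0.1. Oocyte and embryo content was measured through this family alone, so its part in the result was not tested.

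**Figure D3:**
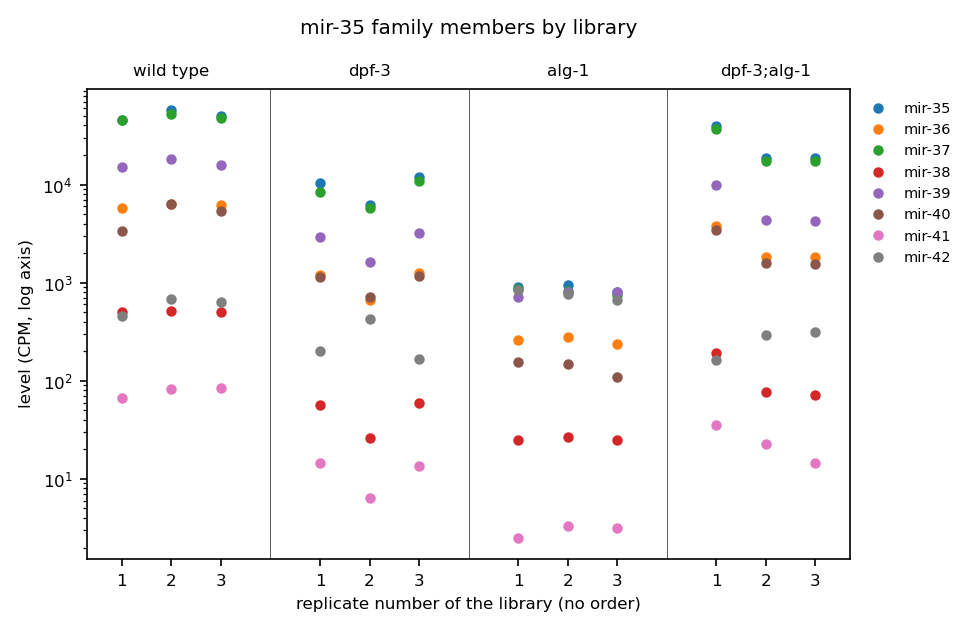
Levels of the 8 mir-35 family members (CPM, log axis) are plotted for each library of wild type, dpf-3, alg-1 and dpf-3;alg-1, and replicate numbers carry no order. From mir-35 to mir-41 the members move together within and between groups, with dpf-3;alg-1 replicate 1 above the other double mutant libraries, and mir-42 departs from them.

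The heterochronic miRNAs, which time the larval stages and the switch to the adult, divided. let-7, which drives the larval-to-adult switch, went from 14719, 14395 and 16180.3 CPM to 20578, 19000.0 and 20864 CPM, a small rise without overlap at 0.42 (SE 0.11, adjusted p = 0.0035). That call was lost with upper quartile factors (0.16, adjusted p = 0.35). mir-48 and mir-241, sisters of let-7 that act at an earlier larval transition, moved the other way. mir-48 fell from 53178, 47892 and 51805 CPM to 32261, 27206 and 28535 CPM, at -0.80 (SE 0.084, adjusted p = 3.4e-07). mir-241 fell from 2916, 2706 and 3102 CPM to 1739, 1323 and 1432 CPM, at -0.96 (SE 0.14, adjusted p = 2.1e-05). Neither set of libraries overlapped. The remaining sister, mir-84, was at 0.18 and did not pass.

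Over the whole let-7 family 5 of 8 members rose, 2 fell and 1 did not pass, and the falls were near the share over all tested miRNAs (28.8% rose and 29.5% fell). The rises beside let-7 were mir-795 (0.77, SE 0.17), mir-793 (0.68, SE 0.12), mir-794 (0.44, SE 0.11) and mir-1821 (0.35, SE 0.13). Neither mir-794 nor mir-1821 passed with upper quartile factors, and the call of mir-1821 was also lost without dpf-3 replicate 1, dpf-3 replicate 3 or dpf-3;alg-1 replicate 3. Since mir-48 is the most abundant member, the summed share of the family went down while most members went up, from 8.17% ± 0.359 to 6.32% ± 0.126 of the counts (SD, n = 3), with no overlap. lin-4, which ends the first larval programme, was 2625, 2652 and 2314 CPM in dpf-3 and 2113, 2221 and 2162 CPM in the double mutant. Its change of -0.22 passed narrowly (adjusted p = 0.041) and the call was lost in most alternatives, among them each of RLE factors, DESeq2, the omission of dpf-3 replicate 2 and that of both libraries that stood apart (-0.18, adjusted p = 0.23). Its relative mir-237 was at -0.066 and did not pass. Of the 6 miRNAs of the developmental timing list 1 rose and 3 fell.

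Of the 5 neuron markers on the list 4 rose and none fell, beside 28.8% and 29.5% of all tested miRNAs, and their median change was 0.68. mir-791, which acts in neurons that sense carbon dioxide, was 21.9, 29.7 and 20.6 CPM in dpf-3 and 41.9, 55.0 and 58.8 CPM in the double mutant, at 1.11 (SE 0.16, adjusted p = 1.3e-05). mir-790 and mir-124, a miRNA of ciliated sensory neurons, rose by 0.84 (SE 0.21) and 0.67 (SE 0.16), and mir-793 was the remaining rise. The call of mir-124 was lost with upper quartile factors. lsy-6, which sets left-right asymmetry of a taste neuron pair, was at 0.38 (SE 0.18, adjusted p = 0.083) and did not pass. Together the markers took 0.117%, 0.158% and 0.112% of the counts in dpf-3 and 0.176%, 0.237% and 0.251% in the double mutant, which did not overlap.

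Of the markers of other tissues, only mir-243 of the intestine passed with TMM factors. The muscle miRNA mir-1, the most abundant of all, held 17.4% ± 1.71 of the counts in dpf-3 and 17.8% ± 0.853 in the double mutant (SD, n = 3), and it did not pass, with a change of 0.045 (SE 0.10). For glia, mir-228 was at -0.14 (SE 0.13, adjusted p = 0.35), and it passed as lower with upper quartile factors, at -0.42. Of the intestine markers, mir-60 was at 0.10 and did not pass, while mir-243 fell by 0.46 on the log2 scale without overlap (adjusted p = 0.011). The part of a change in tissue content in the results above was not tested.

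In the other families, with TMM factors, called members of a family moved in a single direction and the remaining members did not pass. Over all tested miRNAs 28.8% rose and 29.5% fell. In the mir-51 family, which acts broadly in embryonic development, 3 of 6 members rose, mir-51 by 0.61, mir-53 by 0.49 and mir-52 by 0.41. All 3 calls were lost with upper quartile factors, and mir-54, mir-55 and mir-56 did not pass. In the mir-64 family 3 of 5 members fell, with mir-65 at -0.66, mir-64 at -0.61 and mir-229 at -0.37, while mir-63 and mir-66 were at -0.19 and 0.16 and did not pass. Without the libraries that stood apart mir-63 passed as lower (-0.33, adjusted p = 0.020). In the mir-2 family mir-250 and mir-43 (0.56) rose and mir-2 (-0.18) and mir-797 (0.49) did not pass. Without the libraries that stood apart mir-797 passed as higher (1.05, adjusted p = 0.012). The call of mir-43 was lost without dpf-3 replicate 1 or with upper quartile factors. In the mir-44 family mir-61 rose, while the abundant mir-44/45, at -0.23 (SE 0.12), and mir-247, at 0.095, did not pass, and mir-247 passed as higher without the libraries that stood apart (0.76, adjusted p = 0.010). mir-72 was the member of its family of 3 that rose, at 0.52, a call lost with upper quartile factors.

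Of 7 miRNAs linked to ageing and stress, 2 rose, 1 fell and 4 did not pass, so the rises were near the 28.8% over all tested miRNAs and the list did not stand out. mir-246, whose level climbs in ageing worms, rose from 3979, 2966 and 4590.3 CPM to 7951, 5476 and 5601 CPM without overlap, at 0.72 (SE 0.16, adjusted p = 0.0009), and it was 0.36 (adjusted p = 0.030) without the libraries that stood apart. mir-34, a stress-response miRNA, rose by 0.49 (SE 0.12), which was lost with upper quartile factors. mir-71, which promotes long life, was at 0.21 (SE 0.22) and did not pass, and it was -0.21 without those libraries. The fall in the list was that of lin-4.

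**Figure D4:**
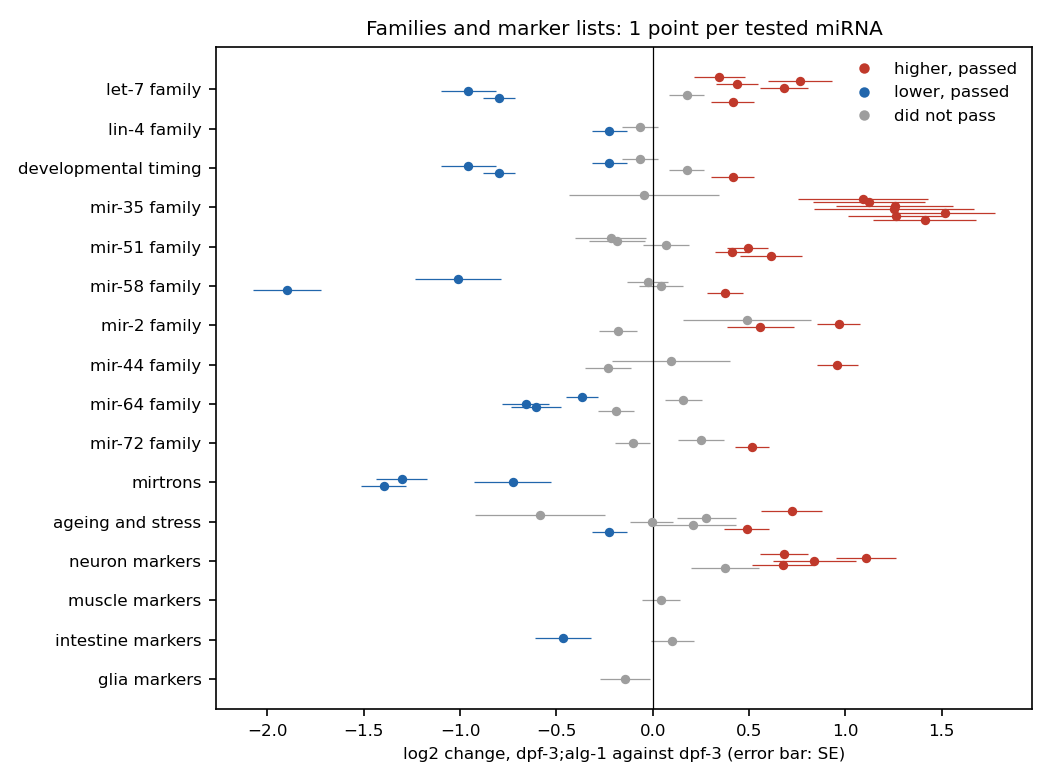
Each point is a tested miRNA of a family or marker list, placed by its log2 change from dpf-3 to dpf-3;alg-1 with the SE as error bar and coloured by whether it passed as higher, passed as lower or did not pass. The mir-35 family lies to the right of 0 apart from mir-42, the mirtrons lie to the left, and the let-7 and mir-58 families spread to both sides.

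MiRNA genes that lie close together can be made from a common primary transcript. Taking miRNA genes within 10 kb of each other in the WBcel235 annotation, 54 tested miRNAs formed 21 clusters. All members were called in the same direction in 8 clusters, and members were called in both directions in 3. Some members were called in a single direction in 6, and no member was called in 4. Over all tested miRNAs 58.3% were called, 28.8% as higher and 29.5% as lower. Whether neighbours moved together more often than these shares would give was not tested. The 7 genes from mir-35 to mir-41 spanned 0.43 log2 units, mir-61 and mir-250 differed by 0.0067, and mir-240 and mir-786 by 0.017. Without the libraries that stood apart neither mir-240 (0.28) nor mir-786 (0.23) passed, and the calls of mir-38, mir-40 and mir-41 were lost too. mir-48 with mir-241, and mir-1819 with mir-2212 (-1.14), fell as pairs. Clusters that split were mir-80, mir-238 and mir-90 (-1.90, -0.0057 and 0.46), mir-359, mir-785 and mir-249 (-0.10, -0.85 and 0.72), and mir-230 and mir-791 (-0.51 and 1.11). With upper quartile factors the call of mir-90 was lost (0.18, adjusted p = 0.32). The call of mir-230 was lost without dpf-3 replicate 2, without dpf-3;alg-1 replicate 1 or without both (-0.16, adjusted p = 0.46).

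With dpf-3 intact, loss of alg-1 moved more miRNAs and moved them further. Against wild type, alg-1 had 59 of 139 miRNAs higher (42.4%) and 58 lower (41.7%), 84.2% in all, and the libraries of the groups were apart for 83.5%. There the median size of the change was 1.07 log2 units, against 0.47 in the dpf-3 background. The change was smaller in the dpf-3 background for 104 of the 139. A contrast of the alg-1 effects in the backgrounds, in the same fit, passed for 96 miRNAs (69.1%), 40 with a higher change in the dpf-3 background (28.8%) and 56 with a lower one (40.3%). By at least 2-fold, 28 were higher (20.1%) and 30 lower (21.6%).

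The direction of change was often shared and sometimes opposite. Of the 73 miRNAs called in both comparisons 52 moved the same way, which is 64.2% of the calls in the dpf-3 background and 44.4% of those with dpf-3 intact. The other 21 moved in opposite directions, and the difference passed for all 21. Upper quartile factors shifted the median change of alg-1 against wild type from -0.085 to 1.07, and with them the numbers were 22 in the same and 40 in opposite directions. Under the other scalings, filters and tools they were 47 to 56 and 17 to 22. Among the 52, the difference did not pass for 21, the change was smaller with dpf-3 lost for 27 and larger for 4. Across 138 miRNAs, without mir-799, which had no count in the double mutant, Pearson's r of the log2 changes was 0.056 and Spearman's rho 0.28. Without the mir-35 family as well they were 0.34 and 0.49 (130 miRNAs). With mir-799 included they were 0.23 and 0.30 over all 139 miRNAs, and 0.47 and 0.50 outside the mir-35 family (131 miRNAs). MiRNAs are not independent replicates, and all of these values come from the same 12 libraries.

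Among miRNAs named by the rule, the largest differences between the backgrounds were those of the mir-35 family. mir-35 was 45338, 57408 and 50099 CPM in wild type and 907, 937 and 809 CPM in alg-1, a change of -5.85, against 1.41 in the dpf-3 background. The difference was 7.26 (SE 0.41, adjusted p = 4.1e-10). For mir-37, mir-40, mir-36 and mir-41 it was 7.41, 6.31, 5.81 and 5.80. mir-246 fell by 4.56 on the log2 scale with dpf-3 intact and rose in dpf-3 animals, a difference of 5.28. let-7 changed by -1.43 with dpf-3 intact and 0.42 without it (difference 1.84), and mir-253 by -1.49 and 2.34 (difference 3.83). With upper quartile factors the difference of let-7 was 0.42 (adjusted p = 0.057) and did not pass. That of mir-253 was 2.41 and passed.

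The opposite order held for a second set. mir-788 rose with dpf-3 intact, from 20.9, 16.2 and 15.4 CPM to 42.7, 44.9 and 43.9 CPM, and fell in dpf-3 animals, a difference of -5.34 (SE 0.59). mir-227 and mir-244 rose by 1.15 and 2.68 with dpf-3 intact, and were at -1.28 and -0.94 in dpf-3 animals, with differences of -2.44 and -3.62. mir-48 did likewise on a smaller scale, 0.37 against -0.80. mir-797 and mir-247 rose by 3.66 and 2.89 in alg-1, and their changes of 0.49 and 0.095 in the dpf-3 background did not pass, with differences of -3.17 and -2.80. Without the libraries that stood apart these changes were 1.05 and 0.76 and passed. With dpf-3 intact, mir-228 of glia rose by 1.90, which differed from the dpf-3 background by -2.04.

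In alg-1 with dpf-3 intact 23 miRNAs fell at least 4-fold. In the dpf-3 background 9 of them fell, 10 rose and 4 did not pass, where 29.5% of all tested miRNAs fell and 28.8% rose. The 10 rises were mir-246, mir-240, mir-786 and the 7 neighbours from mir-35 to mir-41. Without the libraries that stood apart, mir-38, mir-40, mir-41, mir-240 and mir-786 were no longer called. mir-85 was 7185, 8664 and 8118 CPM in wild type, 275, 271 and 245 CPM in alg-1, 8724, 6826 and 8291 CPM in dpf-3 and 8979.8, 7422 and 7385 CPM in the double mutant. Its change in the dpf-3 background was -0.0032 (SE 0.11), beside -4.92 with dpf-3 intact. mir-359, at -0.10 against -3.72, and mir-77, at -0.27 against -2.91, also did not pass in dpf-3 animals, but mir-77 passed as lower without the libraries that stood apart (-0.64, adjusted p = 0.0016). mir-784 and mir-1020 fell in both backgrounds, and the falls were smaller in dpf-3 animals by 0.96 and 1.60 log2 units. With upper quartile factors the difference of mir-784 had the other sign and did not pass. That of mir-1020 was then 0.18 (adjusted p = 0.43) and did not pass either.

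For some miRNAs the difference between the backgrounds did not pass with TMM factors. For mir-61 the changes were 0.96 and 0.98, a difference of -0.023 (SE 0.15), which was -1.46 and passed with upper quartile factors. mir-241 changed by -0.96 and -0.97 (difference 0.0099, SE 0.20). With upper quartile factors that difference was -1.40 and passed, and mir-241 was at 0.19 in alg-1 against wild type, which did not pass. mir-355 changed by -1.63 and -1.80, a difference of 0.17 (SE 0.19), which was -1.24 and passed with upper quartile factors. A fall that was larger in dpf-3 animals was that of mir-80, at -1.90 against -0.82, a difference of -1.08 (SE 0.24, adjusted p = 0.00077). With upper quartile factors mir-80 was at 0.34 in alg-1 against wild type and did not pass there.

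**Figure D5:**
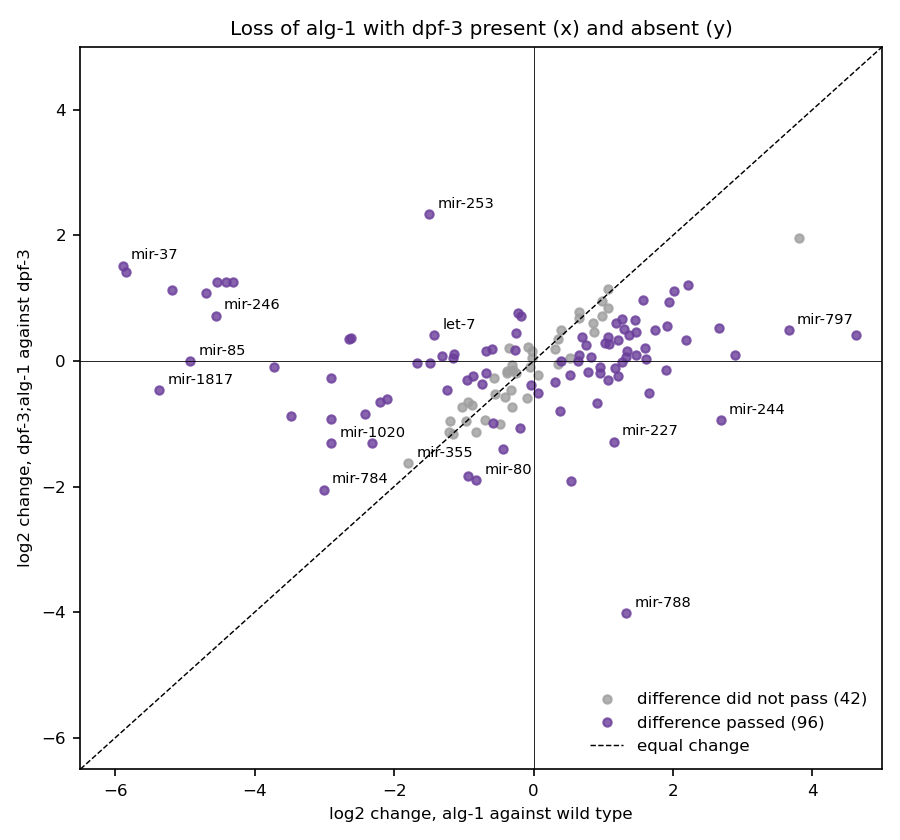
The log2 change when alg-1 is lost with dpf-3 present (x) is plotted against the change with dpf-3 absent (y) for 138 miRNAs, mir-799 left out, with the 96 whose difference passed in purple, the 42 others in grey and a dashed line of equal change. Most points lie nearer to 0 on the y axis than on the x axis, and the 7 called mir-35 family members lie at the far left and above 0 on the y axis.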

How the data were processed

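The authors deposited 1 table of expected counts per library, unnormalized, with 176 miRNA names in 5 columns. Per the submitters' processing notes, Bowtie 0.12.7 was used. Not given in the sources used here are build, annotation and counting, and coordinates are left out. Per the labels' protocols, Trizol RNA went into a NEBNext small RNA kit with gel selection. Column 5, the sum of columns 3 and 4, was rounded to whole numbers. Some values are fractions, which can arise where reads are shared among matching miRNAs, so the split between family members with near-identical sequences is uncertain. mir-44 and mir-45 were identical in 18 libraries and were summed.

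The test was edgeR 4.0.16 under R 4.3.3 (TMM, robust quasi-likelihood, 18 libraries, genotype as the term, 12 residual degrees of freedom, common biological coefficient of variation 14.0%). The filter (10 counts at the median depth, 15 in total) removed 36 miRNAs, 14 without any count, that held 0.000265% of the counts. SEs come from the change and its F statistic. The script was tested on simulated counts. The miRNAs named are the 12 largest rises and 12 largest falls among called miRNAs with at least 10 CPM over the 6 libraries and no overlap, the 10 most abundant in dpf-3, list members and the 5 largest differences between backgrounds in each direction; others, such as mir-799, mir-359, mir-85, mir-77, mir-785, mir-249, mir-90, mir-230, mir-240, mir-786, mir-2212 and mir-2208b-3p, were chosen after their values were seen. Members, lists and tests were chosen with earlier results of these data known. Neighbours come from the WBcel235 annotation, in which 122 of the 139 names matched.

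Alternatives were other scalings and filters, DESeq2 1.42.0, limma-voom (limma 3.58.1), smaller fits, a replicate block and leaving out libraries. Same-numbered dpf-3 and double mutant libraries deviated from their group means with correlations of 0.44, 0.43 and -0.16, and the numbers were not taken as pairs. All libraries of a group differed beyond sampling noise. Whether replicates were separate cultures is not stated in the labels, and p-values then measure only the spread between the libraries, possibly technical.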

Additional observations from a re-analysis of the deposited data

Results flagged for a closer look

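For 24 of 28 miRNAs the test of the difference between the dpf-3 and the wild type backgrounds passed (edgeR, adjusted p below 0.05). These 28 are the 12 largest rises, the 12 largest falls and the 5 largest differences in each direction, some of them shared. The largest differences were picked because they passed. Over all 139 tested miRNAs the difference passed for 69.1%, and outside the 28 it passed for mir-48, mir-246 and mir-228, among others. Values of the 24 follow. The differences are log2 changes in the dpf-3 background minus those with dpf-3 intact. Those above 0 were 7.41 for mir-37, 7.26 for mir-35, 6.31 for mir-40, 5.81 for mir-36, 5.80 for mir-41, 5.66 for mir-39, 5.56 for mir-38, 3.83 for mir-253, 1.60 for mir-1020 and 0.96 for mir-784. Those below 0 were -5.34 for mir-788, -3.62 for mir-244, -3.17 for mir-797, -2.80 for mir-247 and -2.44 for mir-227. Smaller differences below 0 were -1.08 for mir-80, -1.01 for mir-83, -1.002 for mir-792, -0.96 for mir-62, -0.91 for mir-791, -0.90 for mir-2208b-5p, -0.87 for mir-46, -0.60 for mir-250 and -0.40 for mir-70. With upper quartile factors the differences of mir-1020 (0.18) and mir-784 (-0.45) did not pass. With groups of 3 libraries, single libraries were not tested as outliers.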

How the results depend on the processing

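With upper quartile factors dpf-3;alg-1 against dpf-3 gave 19 higher miRNAs, 6 of them by at least 2-fold, alg-1 against wild type gave 94 higher and 25 lower, and there were 15 higher and 104 lower in the difference of the backgrounds, where mir-355 turned to -1.24 and mir-784 to -0.45. Rises of at least 2-fold numbered 6 in a fit of the 6 libraries and 6 without both libraries that stood apart, a setting chosen after seeing the data. A replicate block gave 40 higher and 38 lower in the fit of 12 libraries. Leaving out 1 library at a time gave 34 to 38 higher and 38 to 42 lower in dpf-3;alg-1 against dpf-3, with 5 (without dpf-3;alg-1 replicate 1) to 12 rises and 14 to 21 falls of at least 2-fold. It gave 56 to 61 higher and 54 to 60 lower in alg-1 against wild type, and 37 to 47 higher and 41 to 55 lower in the difference. The difference in mir-35 family share ran from 2.39 points (without dpf-3;alg-1 replicate 1) to 4.54. Of 2208 values of named miRNAs, 2028 kept direction and call, 65 lost and 40 gained a call, and 73 that passed in neither setting changed sign. No called change from dpf-3 to dpf-3;alg-1 turned past the test, and mir-245 went from 0.27 to -0.011 with upper quartile factors. The other comparisons held less well. With those factors 24 called changes of alg-1 against wild type turned sign, 15 of them called in the other direction. Among called differences between the backgrounds 16 turned sign, 9 of them called in the other direction. The cause was not tested. Depth limits the miRNAs below 10 CPM.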

Other observations

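Within dpf-3 and within dpf-3;alg-1, mir-42, mir-788, mir-247 and mir-797 ran against mir-35, a pattern noticed in the values and not tested. In wild type mir-42 and mir-35 had the same order over the libraries. In dpf-3, where replicate 2 had the lowest mir-35, mir-42 was 203, 429 and 168 CPM, mir-247 53.7, 106 and 50.2 CPM and mir-797 8.73, 17.8 and 9.55 CPM. In the double mutant, where replicate 1 had the highest mir-35, they were 164, 296 and 315 CPM, 47.1, 89.5 and 87.7 CPM and 12.5, 18.3 and 20.0 CPM.

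Of the 36 miRNAs that did not pass the filter, 19 had no count in the 6 libraries and the other 17 had at most 36 counts over them.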
